A study of Mus musculus with 250 samples.

Results

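Dividing cells were examined through 32 cell cycle genes, taken by symbol from the 27003 gene symbols of a single-cell count table, in a list drawn up with earlier results of these data known. They comprise 14 genes of DNA replication (Pcna, Mcm2 to Mcm7, Rrm1, Rrm2, Tyms, Cdc6, Cdt1, Ccne1 and Ccne2) and 14 genes of mitosis (Mki67, Top2a, Ccna2, Ccnb1, Ccnb2, Cdk1, Plk1, Aurka, Aurkb, Bub1, Cenpa, Cenpe, Birc5 and Ube2c). The remaining 4 (Ccnd1, Ccnd2, Cdkn1a and Cdkn1b) act in G1, the phase before replication. All 32 had a row in the table and at least 1 read in at least 5 cells.

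A dividing cell passes through the phases of its cycle in a fixed order, and each phase has its own transcripts. D-type cyclins, with their kinases, carry a cell out of G1, and the inhibitors p21 (Cdkn1a) and p27 (Cdkn1b) hold it back. E-type cyclins and E2F factors then open the S phase programme of origin licensing, the MCM helicase, nucleotide supply and the PCNA clamp. Late in the cycle a further programme supplies the A- and B-type cyclins, the kinase CDK1, the mitotic kinases and the proteins of the kinetochore and spindle checkpoint. In epidermis, division takes place mainly in basal cells attached to the basement membrane, and cells that leave that layer switch to keratins 1 and 10.

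The cells were sorted from tail epidermis of Lrig1CreER/Rosa-TdTomato mice and sequenced singly by Smart-Seq2, which reads whole transcripts and carries no molecular identifiers. In this genotype an inducible Cre recombinase driven from Lrig1, a gene of hair follicle stem cells, switches on the red reporter TdTomato, so that progeny of Lrig1 cells stay marked. All 250 cells are labelled Lrig1 GL Sca1+ (GL is not spelled out in the labels), with a time of 8 weeks and the unexplained addition pw1. The control region, which is labelled as carrying no memory, gave 84 of them, the distal memory region 81 and the wound bed 85. Each region filled 1 plate in each of 2 batches: control 28 and 56 cells, distal memory 32 and 49, wound bed 30 and 55. The genotype, sort and time were shared by all 3 regions, and the labels give no age and name no animal. Each region was therefore treated as 1 sample, no test between regions was made, and a region cannot be told apart from its plate within a batch.

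Reads per cell ran from 3857 to 3119120 (median 49298), and 4 cells of distal memory batch 1 held over 500000 reads. In 28 cells, 24 of them control, predicted genes of a repeat-like kind took over 5% of the non-mitochondrial reads. As a check of the epidermal label, Krt14, the basal keratin, was read in 30 of 30 cells of the mitosis set defined below and in 184 of 220 others. Ly6a, which encodes the sorted antigen Sca1, was read in 21 of 30 and 112 of 220, and Lrig1 in 5 of 30 and 28 of 220. Of the 9 immune markers in the table, 4 had no read in any cell and the rest were read in 4 cells in all.

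Some promoters of these genes carry short elements known from cell cycle promoters, and 5 stretches are printed to show where those letters lie. Of the 32 genes, 26 had an entry in the RefSeq promoter table (GRCm38.p6). In the 250 bases upstream of the start site, both strands were searched for the CHR element (TTTGAA or TTCGAA), known from late cell cycle promoters. It was present in 5 of 12 mitosis genes with an entry (Mki67, Top2a, Ccnb2, Cdk1 and Ube2c), in 2 of 12 replication genes, and in 17.15% of all 32851 promoters. An E2F-type element (TTTCCCGC, TTTGGCGC, TTTCGCGC or TTTGCCGC) was present in 4 of 12 replication genes (Mcm5, Mcm6, Mcm7 and Cdc6), in 1 of 12 mitosis genes (Cdk1) and in 1.86% of all promoters. The box CCAAT, bound by NF-Y, was present in 11 of 12 mitosis genes, 8 of 12 replication genes and 33.85% of all promoters. Each element was searched for by itself, so matches of different elements may overlap, and a match is a description of the sequence, not evidence that a factor binds there.

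The mitosis genes with a CHR element that were read in the most cells are shown first, in the direction of transcription, with the element in capitals. They are Mki67 (minus strand, chr7:135716442-135716507) and Top2a (minus strand, chr11:99024190-99024242), and the capitals end 92 and 17 bases before the RefSeq start site. Only the match closest to the start site is in capitals, and the bases searched held 2 matches in Mki67 and 4 in Top2a. The second match of Mki67 is in lower case in the printed stretch.
Mki67: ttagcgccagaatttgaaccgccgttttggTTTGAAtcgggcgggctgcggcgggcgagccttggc
Top2a: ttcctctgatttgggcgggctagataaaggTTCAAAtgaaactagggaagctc

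The 3 replication genes are Mcm6 (minus strand, chr1:128359715-128359782), Mcm5 (plus strand, chr8:75109330-75109397) and Cdc6 (plus strand, chr11:98907983-98908050). Their capitals mark the E2F-type match closest to the start site, which ends 39, 141 and 130 bases before it. The bases searched held 3, 2 and 1 matches, and in Mcm5 the second match runs into the capitals. The stretches of Cdk1 and Mcm7 overlapped an annotated untranslated region and are not printed.
Mcm6: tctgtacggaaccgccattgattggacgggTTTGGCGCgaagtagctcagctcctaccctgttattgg
Mcm5: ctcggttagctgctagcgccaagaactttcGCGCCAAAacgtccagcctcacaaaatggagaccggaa
Cdc6: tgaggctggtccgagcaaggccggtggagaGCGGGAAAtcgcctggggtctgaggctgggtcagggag

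Most cells had no read of any mitosis gene, and a small group of cells had many of them. Of 250 cells, 174 had no read of any of the 14 genes, 46 had a read of 1 or 2, 10 of 3 to 5, 2 of 6 to 8, and 18 of 9 or more. Cells with a read of at least 3 are called the mitosis set below. It held 30 cells, 12% of all (exact Clopper-Pearson 95% interval 8.25 to 16.7%). The set is a range of a count and not a cell type, and few cells lay at its edge: 6 cells had exactly 2 of the genes and 4 had exactly 3. Such intervals cover counting error alone, since reads are not independent molecules and cells may share an animal.

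The mitosis set was found in every region and every plate. It held 7 of 84 control cells (8.33%, interval 3.42 to 16.4%), 11 of 81 distal memory cells (13.6%, 6.98 to 23%) and, in the wound bed, 12 of 85 (14.1%, 7.51 to 23.4%). The 3 intervals overlap over most of their length. By batch the counts were 2 of 28 and 5 of 56 in control, 6 of 32 and 5 of 49 in distal memory, and 3 of 30 and 9 of 55 in the wound bed. With every cell thinned to 10000 reads, which left out 12 shallower cells, the set held 7 of 83, 8 of 77 and 9 of 78 cells.

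The regions came out level at the upper end of the count. Cells with 9 or more mitosis genes numbered 6 in each region, which is 7.14% of control, 7.41% of distal memory and 7.06% of wound bed cells. The surplus outside control lay in cells with 3 to 5 of the genes, of which control had 0 (which allows up to 4.30%), distal memory 4 and the wound bed 6. All 6 of the latter came from batch 2. The cells of the mitosis set were also deeper, with a median of 95063 reads and 2756 genes against 46883.5 reads and 1771 genes in the other 220 cells, and the part of depth in the set was not tested beyond the thinning.

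**Figure D1:**
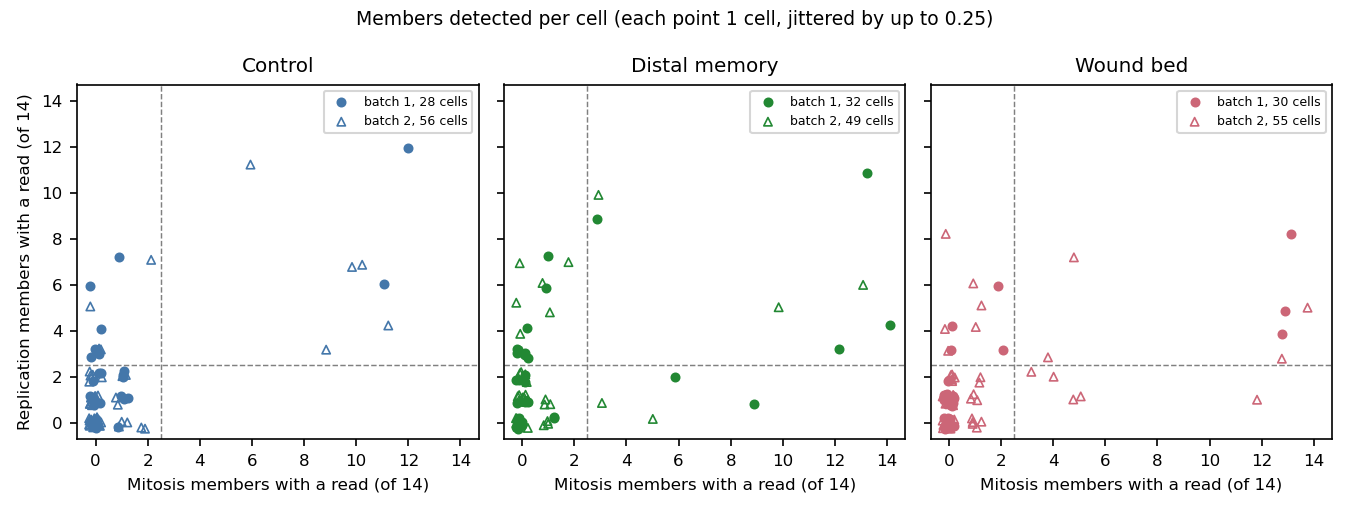
Mitosis genes with a read (x axis, of 14) against replication genes with a read (y axis, of 14) for each of the 250 cells, by region, with filled circles for batch 1, open triangles for batch 2 and dashed lines at the limit of 3 genes. Most cells sit at 0 to 2 mitosis genes, and each region has 6 cells at 9 or more.

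Single mitosis genes differed widely in how many cells showed them. Mki67, the nuclear proliferation antigen Ki-67 (chr7:135689784-135716361, minus strand, GENCODE M21 on GRCm38), was read in 48 cells and was the most widely read. Top2a, the topoisomerase that untangles chromosomes (chr11:98992943-99024189, minus strand), was read in 36. Next came Cenpa, the histone of the centromere, in 26 cells, and Birc5, the survivin subunit of the chromosomal passenger complex (chr11:117849251-117855743, plus strand), in 25. Ccnb1, the B-type cyclin of mitotic entry (chr13:100778650-100786570, minus strand), and its partner kinase Cdk1 (chr10:69335146-69352938, minus strand) were each read in 24. The fewest cells showed Aurkb, the kinase of the passenger complex, with 13, and then Plk1, Aurka and Bub1 with 14 each, which act at the spindle, the centrosome and the checkpoint.

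Almost all reads of the mitosis genes came from the 30 cells of the set. For each of the 14 genes the set held between 97.0 and 100% of its reads (median 99.8%). Since the set was defined by these genes, that share describes how concentrated they are and supports nothing further. On the scale of mean counts scaled to library size (CPM, the usual unit) per kilobase of exon over the set cells, Ccnb2 was highest at 326, followed by Ccnb1 at 116, Mki67 at 108 and Top2a at 86.6. The lowest were Aurka at 7.13 and Plk1 at 16.9. Outside the set the level per kilobase of Mki67 was 2.02, and the other 13 genes lay below 1.

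The cells of the set differed strongly in how much mitosis RNA they held. Summed over the 14 genes, the level ran from 1533 to 6794 CPM in control (median 5472), from 2.35 to 6849 CPM in distal memory (median 1921) and from 556 to 15568 CPM in the wound bed (median 3458). The lowest value belongs to a deep distal memory cell of 1703213 reads with 3 mitosis genes, 4 mitosis reads and 9 replication genes. Every control cell of the set had 6 or more of the genes, while the distal memory and wound bed ranges reach further down. The highest 3 sums of all, 12380, 13937 and 15568 CPM, were in the wound bed.

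**Figure D2:**
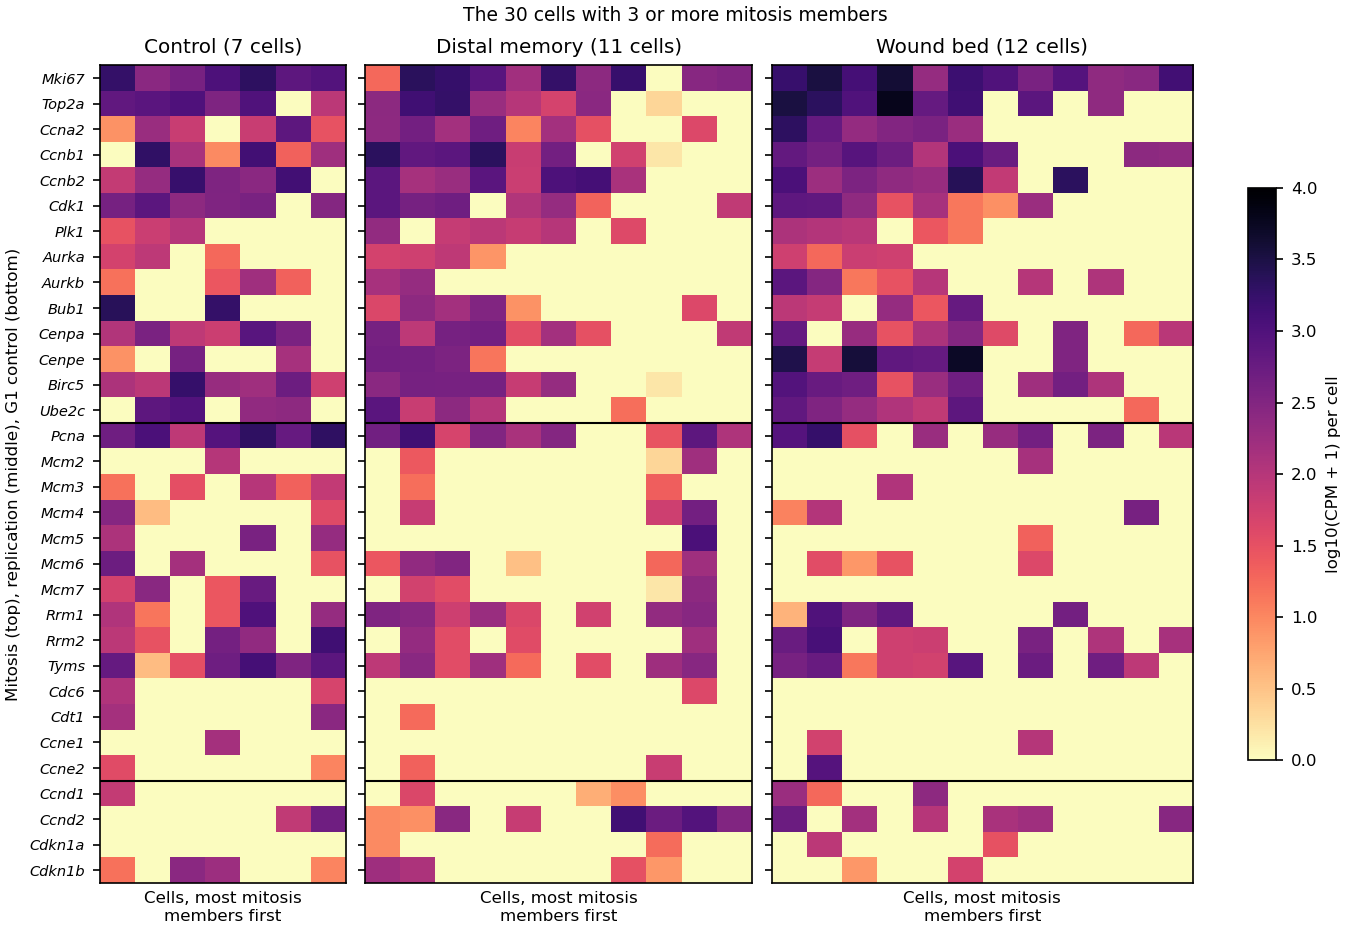
Level of each of the 32 genes (rows: mitosis, replication, G1 control) as log10(CPM + 1) in each of the 30 cells of the mitosis set (columns, most mitosis genes first in each region). Replication genes are patchy in the same cells, and Cdkn1a is at 0 in 26 of the 30.

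Each mitosis gene was then judged by the other 13, so that a gene did not count for its own co-expression. Of the cells with a read of Ccnb2, Plk1 or Aurkb, 100% also had at least 3 other mitosis genes (22 of 22, 14 of 14 and 13 of 13). The median over the 14 genes was 86.0%. Mki67 and Top2a were the exceptions, with 26 of 48 (54.2%) and 21 of 36 (58.3%). A read of Mki67 by itself was thus found in many cells without the rest of the mitosis genes, 19 of them outside the set, at a mean of 20.3 CPM over those 220 cells against 1087 in the set. Among cells without a given gene, between 0.50 and 8.05% had 3 of the others.

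Pairs of genes showed the same order. The share of cells with both genes among cells with either had a median of 45% over the 91 pairs of mitosis genes and was highest for Ccnb2 with Cenpa (20 of 28 cells, 71.4%). Over the 91 pairs of replication genes the median was 15.2%, and over the 196 mixed pairs 12.8%. The regions kept this order, with medians for mitosis pairs of 37.5% in control and 50% in distal memory and in the wound bed, and for replication pairs of 17.8, 14.8 and 11.1%. These shares come from sparse reads of the same libraries and are given as a description.

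The replication genes were spread over more cells, and 81 of 250 cells had no read of any of the 14. Pcna, the sliding clamp that holds DNA polymerase on its template (chr2:132249162-132253314, minus strand), was read in 126 cells, more than any other mitosis or replication gene. Tyms, the thymidylate synthase (chr5:30058202-30073617, minus strand), was read in 51 cells. Mcm6, Rrm1, Mcm4 and Mcm7 followed with 45, 42, 36 and 31, and Rrm2, Mcm2, Mcm3 and Mcm5 with 23, 22, 22 and 19. The licensing factors Cdt1 and Cdc6 and the E-type cyclins Ccne2 and Ccne1 were near the limit of detection, with 12, 6, 8 and 5 cells. Of cells with a read of Pcna, 24 of 126 (19%) had 3 or more mitosis genes, against 16 of 23 (69.6%) for Rrm2, the small subunit of ribonucleotide reductase. The median of this share over the 14 replication genes was 32.6%. Each was also judged by the other replication genes, as the mitosis genes were by theirs. The median share of cells with at least 3 others was then 65.15% (range 27.8 to 83.3%).

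Cells with at least 3 replication genes, called the replication set, numbered 60. They were 18 of 84 in control (21.4%, interval 13.2 to 31.7%), 25 of 81 in distal memory (30.9%, 21.1 to 42.1%) and 17 of 85 in the wound bed (20%, 12.1 to 30.1%). By batch the shares were 28.6 and 17.9% in control, 40.6 and 24.5% in distal memory, and 23.3 and 18.2% in the wound bed. Distal memory was thus highest in both batches, with intervals that overlap those of the other regions. Thinned to 10000 reads the shares were 9.64, 19.5 and 8.97%, with distal memory again highest in each batch (18.8 and 20%, against 10.7 and 9.09% in control and 6.90 and 10.2% in the wound bed). The edge of this set was crowded, with 35 cells at exactly 2 genes and 22 at exactly 3, so its size depends on the limit far more than that of the mitosis set.

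The sets overlapped in 21 cells, 7 in each region. Cells of the replication set without the mitosis set numbered 11 in control, 18 in distal memory and 10 in the wound bed. Cells of the mitosis set without the replication set numbered 0 of 7 in control, 4 of 11 in distal memory and 5 of 12 in the wound bed. Within the mitosis set the median count of replication genes was 7 in control, 4 in distal memory and 3 in the wound bed, against 1 in the other cells of each region. Across the cells of a plate, Spearman's rho between the counts of mitosis and replication genes lay between 0.22 and 0.66 in all 6 plates (28 to 56 cells each). Cells of a plate share library preparation, and the count of replication genes also went with log10 reads (rho 0.20 over 250 cells).

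Single replication genes differed in how their cells were divided between the mitosis set and the other cells. Tyms was read in 24 of 30 set cells and 27 of 220 others, at mean levels of 252 and 22.3 CPM. Rrm2 was read in 16 of 30 and 7 of 220, and Rrm1, the large subunit, in 18 of 30 and 24 of 220. Pcna was read in 24 of 30 but also in 102 of 220, with means of 487 and 146 CPM. Mcm2 was read in 5 of 30 and 17 of 220 and Mcm6 in 13 of 30 and 32 of 220. Each of these 6 genes had the higher share of cells in the set, whose cells were also deeper. A pseudogene of Pcna in the table, Pcna-ps2, had 62 reads in 16 cells, and how reads were divided between such copies is not given in the sources used here.

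The G1 genes were not concentrated in the mitosis set. Cdkn1a, which encodes the inhibitor p21 (chr17:29090976-29100727, plus strand), was read in 4 of 30 set cells (13.3%) and in 90 of 220 others (40.9%), at means of 4.73 and 99.4 CPM. The set cells had the lower share in each region: 0 of 7 against 31 of 77 in control, 2 of 11 against 36 of 70 in distal memory, and 2 of 12 against 23 of 73 in the wound bed. At 10000 reads per cell it was 0 of 28 against 61 of 210.

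For the other G1 genes the shares lay closer together. Ccnd2, the cyclin D2 gene (chr6:127125162-127152193, minus strand), was read in 16 of 30 set cells and 130 of 220 others. Its mean level in the set was lower, at 181 CPM against 502. The share differed by region, with 2 of 7 set cells against 53 of 77 others in control. It was 8 of 11 against 43 of 70 in distal memory and 6 of 12 against 34 of 73 in the wound bed. Ccnd1, the cyclin D1 gene (chr7:144929931-144939925, minus strand), was read in 7 of 30 and 48 of 220. Cdkn1b, which encodes p27 (chr6:134920401-134925513, plus strand), was read in 10 of 30 and 50 of 220, and at 10000 reads in 3 of 28 and 24 of 210. By region, with all reads, Cdkn1b was read in 4 of 7 set cells and 20 of 77 others in control. The counts were 4 of 11 and 19 of 70 in distal memory, and 2 of 12 and 11 of 73 in the wound bed. Ccnd1 shares 23.4% of its exon bases with LTO1 on the opposite strand, and whether counting used strand is not given in the sources used here.

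Genes that took no part in choosing the cells were checked in the same 30 cells. Of a wider list of 60 mitosis genes outside the 32, the set cells had a median of 32.5 with a read (range 5 to 56) against 3 (0 to 22) in the others. The actomyosin scaffold Anln was read in 24 of 30 set cells and 4 of 220 others, the spindle factor Tpx2 in 21 and 1, and the kinetochore protein Cenpf in 22 and 6. A wider list of 54 replication genes had a median of 17.5 with a read in the set and 3 outside. Pclaf, a partner of PCNA, was read in 21 of 30 and 4 of 220, and Tk1, the thymidine kinase of S phase, in 18 and 9. A wider list of 34 G1 genes differed less, with medians of 7 and 3. No test was made of these differences, and the part of depth in them was not tested.

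Basal and suprabasal markers were compared in the same cells. Krt5 was read in 30 of 30 set cells and 144 of 220 others, and Col17a1, a collagen of the basal attachment, in 29 and 156. Krt1, the early suprabasal keratin, was read in 4 of 30 and 92 of 220, and Krt10 in 18 of 30 and 157 of 220, at mean levels of 210 and 10840 CPM. Krt14, at 4195 and 4271 CPM, and Krt15, at 778 and 1305 CPM, were not higher in the set. The summed basal level had a median of 4089 CPM in the set and 5552 in the others in control, 3945 and 5559 in distal memory, and 7944 and 4833 in the wound bed, so its direction differed by region. Krtdap and Dmkn, also listed as suprabasal, were read in 30 and 29 of the set cells. The summed level of the 10 suprabasal markers had a median of 2638 CPM in the set and 8400 in the others. It was lower in the set in each region, at 2810 against 4130 CPM in control, 809 against 8052 in distal memory and 5064 against 29290 in the wound bed. None of the immune markers had a read in the set. Fibroblast markers, at most 1 gene per set cell, were read in 11 of 30 set cells and 59 of 220 others. Most of these were cells with Sparc, which was read in 10 and 54.

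**Figure D3:**
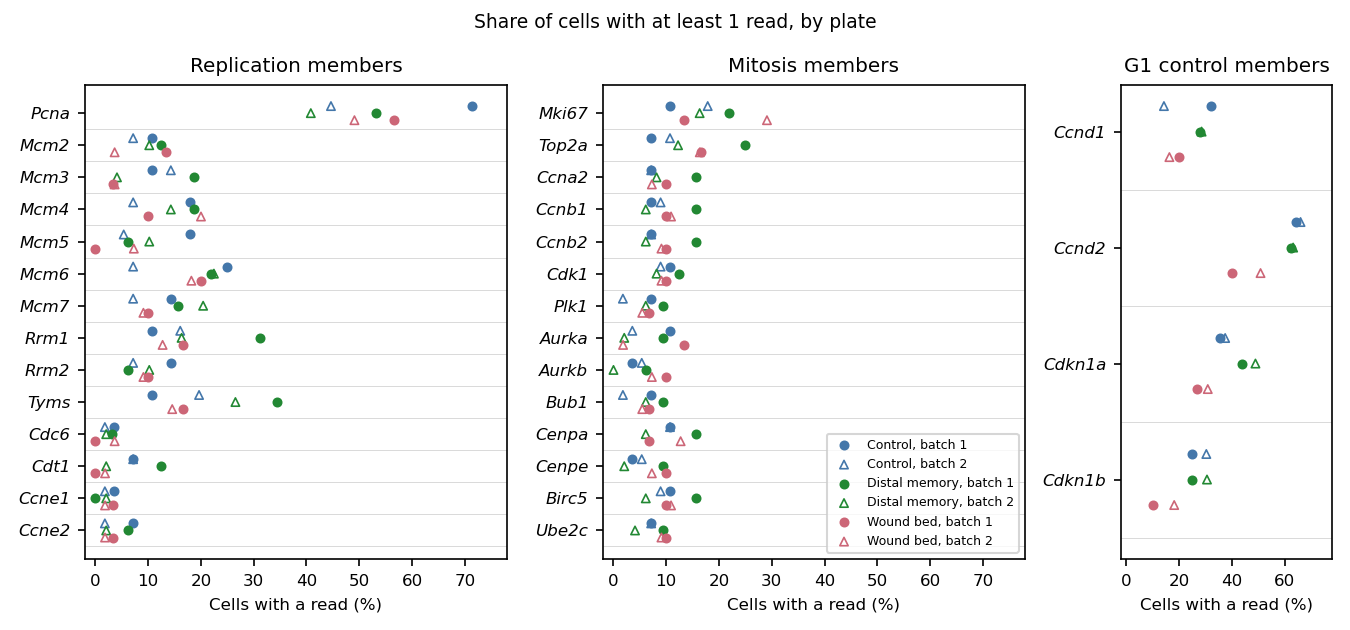
Share of cells with at least 1 read (x axis, percent) for each of the 32 genes (y axis) in each of the 6 plates, with colour for region, filled circles for batch 1 and open triangles for batch 2. Pcna, Ccnd2 and Cdkn1a stand furthest right, and both wound bed plates lie left of the other 4 for Ccnd2 and Cdkn1b.

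Levels were compared between regions on counts summed per plate and scaled by TMM to CPM. Considered were genes read, in each batch, in at least 10% of the cells of 1 or both of the regions compared. The size rule asked for a log2 ratio of CPM + 1 of 1 or more, up or down, with the same sign in both batches. In a sum, more cells with a transcript and more transcript per cell cannot be told apart. With 1 sample a region these are descriptions of plates. The comparisons of distal memory and of the wound bed with control share the control plates.

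Between wound bed and control, 15 of the 32 genes could be considered and 6 met the rule. Higher in the wound bed were 3 mitosis genes, Mki67, Top2a and Birc5, and over all 5776 genes considered 7.83% were higher by the same rule. Lower were Mcm3, Ccnd2 and Cdkn1b, where 8.24% of all genes were lower. Top2a and Birc5 passed the filter through the wound bed plates and Mcm3 through the control plates, so their count is not read as support for a difference. The calls for Mki67, Top2a, Birc5, Mcm3 and Cdkn1b were each lost under at least 1 alternative given with the gene. The call for Ccnd2 just missed the rule in cells with at least 2000 genes. The median log2 ratio of all genes considered was 0.03 in batch 1 and -0.03 in batch 2.

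Mki67 was at 99.2 and 83.6 CPM in the control plates of batches 1 and 2, 611 and 135 in distal memory, and 294 and 273 in the wound bed. Both control plates were below the other 4, and the log2 ratio of wound bed to control was 1.56 in batch 1 and 1.69 in batch 2. The share of cells with a read was 10.7 and 17.9% in control, 21.9 and 16.3% in distal memory, and 13.3 and 29.1% in the wound bed. Weighting every cell equally gave 1.96 and 0.55, thinning to 10000 reads 2.02 and 0.13, and leaving out the repeat-rich cells 0.16 and 1.64, each short of the rule. The value of distal memory batch 1 rests on 1 cell of 1977308 reads, which gave 94.96% of that plate's Mki67 reads and 13358 of its 15572 mitosis reads.

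Top2a was at 110 and 31.2 CPM in control, 382 and 56.6 in distal memory, and 273 and 367 in the wound bed. The wound bed was above control by log2 ratios of 1.30 and 3.51, and by 2.58 and 1.38 with every cell weighted equally. Without the repeat-rich cells the ratios were -0.10 and 3.46, short of the rule, and at 10000 reads (2.54 and 1.35) too few cells had a read to be considered. The same deep cell held 95.5% of the Top2a reads of distal memory batch 1, and a single cell held 81.7% of those of wound bed batch 2. Birc5 was at 14.5 and 33.8 CPM in control, 123 and 18.1 in distal memory, and 59.7 and 106 in the wound bed, with log2 ratios of wound bed to control of 1.97 and 1.62. These became 1.78 and -0.19 weighted equally, 1.65 and -0.03 thinned, and 0.65 and 1.56 without repeat-rich cells, all short of the rule.

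The remaining mitosis genes were uneven over plates. Ccnb1 was at 208 and 14 CPM in control, 248 and 28.3 in distal memory, and 97.9 and 115 in the wound bed, so the wound bed was lower than control in batch 1 and higher in batch 2. In control batch 1 a single cell gave 99.7% of its reads. Cdk1 was at 104 and 19.6 CPM in control, 122 and 25.4 in distal memory, and 42 and 74 in the wound bed, again with opposite signs in the 2 batches. Cdk1 was read in 8 cells of each region. Cenpe, the kinetochore motor, was too rarely read to be considered. It was at 0.28 and 6.80 CPM in control (1 and 3 cells), 118 and 8.77 in distal memory (3 and 1 cells), and 341 and 408 in the wound bed (3 and 4 cells). Bub1, also too rarely read, went the other way, with log2 ratios of wound bed to control of -3.72 and -0.86. A single cell gave 99.4 and 100% of its reads in the control plates. Of the others too rarely read, Ccna2, Ccnb2, Plk1 and Aurkb had positive ratios in both batches, and Aurka and Ube2c had opposite signs.

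Summed over the 14 mitosis genes, the plate sums without TMM, in CPM, were 643 and 397 in control, 1459 and 407 in distal memory, and 1319 and 2273 in the wound bed. Averaged over cells instead, the sums were 404 and 452 CPM in control, 791 and 235 in distal memory, and 1009 and 821 in the wound bed. Both wound bed plates were above both control plates on either scale, and distal memory lay on different sides of control in the 2 batches when cells were weighted equally. The top cell alone gave between 30.6% (control batch 2) and 85.8% (distal memory batch 1) of a plate's mitosis reads. Such sums therefore rest on a handful of cells per plate.

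Replication genes had no call in either comparison of distal memory and 1, Mcm3, between wound bed and control. Of the replication genes considered between distal memory and wound bed, 4 of 8 were higher in distal memory in both batches and 0 lower. Those 4 are helicase genes described below. Over all 6285 genes considered, 1720 were higher in both batches and 1345 lower. The wider replication list, given below, had more genes lower than higher in both batches, so the 4 of 8 is not read as a difference. Pcna was at 376 and 161 CPM in control, 629 and 82.6 in distal memory, and 201 and 208 in the wound bed. It was read in 71.4 and 44.6% of control cells, 53.1 and 40.8% of distal memory cells, and 56.7 and 49.1% of wound bed cells. The order of the regions in CPM was reversed from batch 1 to batch 2. Tyms was at 26.6 and 67 CPM in control, 119 and 25.4 in distal memory, and 24.9 and 69.7 in the wound bed. Its share of cells was highest in distal memory in both batches, at 34.4 and 26.5%, against 10.7 and 19.6% in control and 16.7 and 14.5% in the wound bed. The pooled Tyms intervals were 19.99 to 40.8% in distal memory, 9.42 to 26.4% in control and 8.40 to 24.7% in the wound bed, so they overlap.

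The helicase gene Mcm3 (chr1:20802968-20820312, minus strand) was at 15.9 and 12 CPM in control, 14.01 and 3.11 in distal memory, and 2.21 and 2.11 in the wound bed. The wound bed plates were the lowest, with log2 ratios to control of -2.39 and -2.06, on reads in 3 and 8 control cells against 1 and 2 wound bed cells. Equal weights for all cells gave -0.55 and -2.43 and leaving out the repeat-rich cells 0.36 and -2.06, short of the rule, and at 10000 reads Mcm3 could not be considered. Mcm2 (chr6:88883474-88898780, minus strand), another helicase subunit, was at 5.95 and 10.4 CPM in control, 8.33 and 5.66 in distal memory, and 6.64 and 2.72 in the wound bed, and met no rule. Mcm4 was below control by a log2 ratio of -1.16 in wound bed batch 1 and above it by 3.92 in batch 2. Against control, distal memory was at 0.66 and 4.32 for Mcm4 and at 0.07 and 3.35 for Mcm6. Between distal memory and wound bed, all 6 helicase genes had positive ratios in both batches, at 0.29 and 0.84 for Mcm2, 1.82 and 0.40 for Mcm4, 1.57 and 0.99 for Mcm6 and 1.38 and 0.02 for Mcm7. Too rarely read to be considered there were Mcm3 (2.22 and 0.40) and Mcm5 (2.49 and 2). With equal weights per cell the ratio was below 0 in 1 batch for Mcm2, Mcm4 and Mcm7. The values were -2.05 for Mcm2 in batch 1, -0.37 for Mcm4 in batch 2 and -0.44 for Mcm7 in batch 1. The top cell of a gene was taken for each gene apart, so it need not be the same cell. In distal memory batch 1 it held 92.73% of the reads of Mcm7, 86.83% of Mcm6, 79.37% of Mcm2 and 77.14% of Mcm5. For Mcm4 and Mcm3 the top cell held 52.73% and 33.96%. Over all 6285 genes considered, which leave out Mcm3 and Mcm5, 1720 were positive in both batches. Given the equal-weight signs and the shares of the top cells, the shared sign of the 6 helicase genes is not read as a difference.

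Ccnd2 met the rule in 2 of the comparisons, wound bed with control and distal memory with wound bed. It was at 721 and 411 CPM in control, 390 and 590 in distal memory, and 184 and 173 in the wound bed. Both wound bed plates were below the other 4, with log2 ratios to control of -1.96 and -1.24 and ratios of distal memory to wound bed of 1.08 and 1.76. It was read in 64.3 and 66.1% of control cells, 62.5 and 63.3% of distal memory cells, and 40 and 50.9% of wound bed cells. Among cells with a read, the median level was 712 CPM in control, 461 in distal memory and 148 in the wound bed, so both the share of cells and the level per cell were lower.

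The lower Ccnd2 of the wound bed was also seen in subsets and reweighted cells. Its ratios to control were -2.50 and -1.54 with equal weight for every cell, -2.34 and -1.09 at 10000 reads per cell, -1.84 and -1.22 without repeat-rich cells, and -2.03 and -1.50 without the mitosis set. Among cells with at least 2000 detected genes, which were 36 in control and 26 in the wound bed, the ratios were -1.36 and -0.99 and just missed the rule. The higher Ccnd2 of distal memory over the wound bed missed it with DESeq2 size factors (0.92 and 1.76), with total counts (0.54 and 1.86) and in cells with 2000 genes (0.46 and 1.95). Suprabasal markers were highest in the wound bed plates, where Ccnd2 was lowest. Their mean summed level was 11970 and 15530 CPM in control, 17290 and 16400 in distal memory, and 31270 and 36640 in the wound bed. All 10 of those markers were read. The markers of the hair follicle bulge had mean sums of 220 and 276 CPM in control, 162 and 202 in distal memory, and 87.3 and 87.3 in the wound bed. The part of either list in the Ccnd2 result was not tested.

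Cdkn1b was at 37.7 and 25 CPM in control, 56.2 and 22.3 in distal memory, and 5.53 and 11.2 in the wound bed, which was lowest in both batches. Its log2 ratios of wound bed to control were -2.57 and -1.10. Without the 28 repeat-rich cells, 18 of them in control batch 1, they were 1.40 and -1.09, and thinned they were -2.86 and -0.52, so the rule was not met. Cdkn1a was at 31.5 and 111 CPM in control, 48 and 150 in distal memory, and 27.1 and 39.2 in the wound bed. Distal memory was highest and the wound bed lowest in each batch, with log2 ratios of wound bed to control of -0.21 and -1.47 that did not meet the rule. As means over cells the order was another, at 70.6 and 121 CPM in control, 27.6 and 185 in distal memory, and 26.2 and 45.6 in the wound bed, and the ratios of wound bed to control, -1.40 and -1.39, then met it. Ccnd1 was at 71.7 and 15.6 CPM in control, 38.2 and 214 in distal memory, and 29.9 and 28.7 in the wound bed, and 64.3% of its reads in distal memory batch 2 were from 1 cell.

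**Figure D4:**
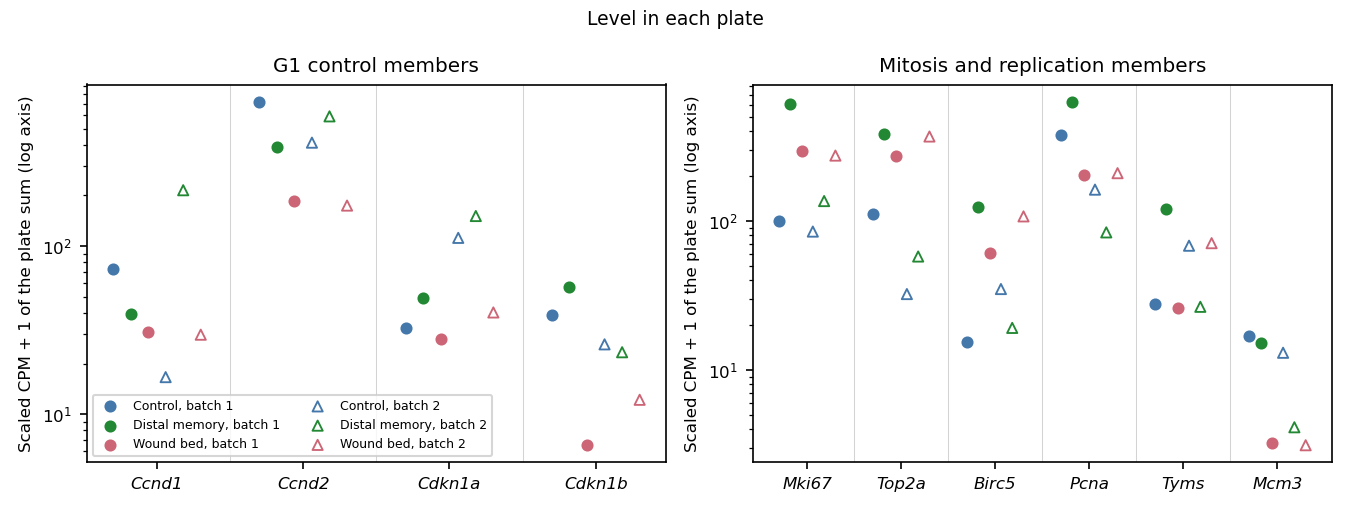
Scaled CPM + 1 of the plate sum on a log axis for the 4 G1 genes (left) and 6 mitosis and replication genes (right), with colour for region, filled circles for batch 1 and open triangles for batch 2. The wound bed plates are the lowest of their batch for Ccnd2 and Cdkn1b, and the control plates are the lowest of theirs for Mki67.

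For distal memory against control, 17 of the 32 genes could be considered and 0 met the rule, where 8.07% of all genes considered were higher and 6.09% lower. Mki67 and Top2a were higher in both batches without reaching the rule in the second, with log2 ratios of 2.61 and 0.68 for Mki67 and of 1.78 and 0.84 for Top2a. The batch 1 values are those of the deep cell named above. With every cell weighted equally Mki67 gave 1.18 and -0.26 and Top2a 0.39 and -0.08. Opposite signs in the 2 batches were found for Rrm1 (4.28 and -1.54), Rrm2 (2.58 and -2.39) and Tyms (2.12 and -1.36).

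In distal memory against wound bed, 17 genes could be considered and 1, Ccnd2, was higher in distal memory. Over all genes considered 9.59% were higher and 5.28% lower. Mki67 was at log2 ratios of 1.05 and -1.01, so its direction depended on the batch. Without the 4 deep cells, Mki67, Top2a, Pcna and Rrm2 were lower in distal memory by the rule, and Ccnd1 and Ccnd2 higher. The ratios were then -1.74 and -1.01 for Mki67, -2.48 and -2.68 for Top2a, and -1.21 and -1.32 for Pcna, so that these calls turn on 4 cells of distal memory batch 1.

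The wider lists were read in the same way. Of the 60 further mitosis genes, 27 could be considered between wound bed and control, and 9 were higher and 0 lower by the rule (7.83 and 8.24% of all genes), with median log2 ratios of 0.75 and 1.33 (0.03 and -0.03 over all genes). Of the 9, 7 passed the filter only through the wound bed plates, and Kpna2 and Ckap5 also passed on the control plates. The medians are over genes chosen by the same filter, so neither the count nor the medians are read as support. The 4 with the largest smaller ratio were Ckap2 (4.11 and 5.89), the centromere protector Sgo1 (6.48 and 2.73), Tpx2 (4.67 and 2.62) and Foxm1 (2.46 and 2.11), the transcription factor of late cell cycle genes. They were read in 20 to 22 cells of all, and Tpx2 in 1 cell outside the mitosis set. In distal memory 4 of 25 were higher than in control (Kif20b, Fzr1, Kpna2 and Cks2) and 0 lower (8.07 and 6.09% of all genes), with medians of 1.03 and 0.06, and 2 of the 4 passed the filter only through distal memory. Against the wound bed, 0 of 26 were higher in distal memory and 2 lower (Tpx2 and Sgo1, both passing only through the wound bed), against 9.59 and 5.28% of all genes.

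Of the 54 further replication genes, 23 could be considered between wound bed and control, and 2 were higher and 1 lower, where 7.83 and 8.24% of all genes were. The origin subunit Orc2 (3.11 and 2.90) and Gmnn, which encodes the licensing inhibitor geminin (4.25 and 1.72), were higher, and Pola1, the catalytic subunit of the primase polymerase (-2.28 and -2.70), was lower. Pola1 was also lower in distal memory than in control (-3.79 and -2.84), where Pole, Gins2, Rfc3 and Rpa2 were higher, among 25 genes (8.07% of all genes higher and 6.09% lower). Orc2, Gmnn, Pole and Gins2 passed the filter only through the region where they were higher. Against the wound bed, 0 of 25 were higher in distal memory by the rule, and those lower included Rfc1 (-1.12 and -1.42) and Gins4 (-1.15 and -1.07). Over all genes considered 9.59% were higher and 5.28% lower. By sign alone, 9 of the 25 were lower in both batches and 2 higher.

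Of the 34 further G1 genes, 19 could be considered between wound bed and control, and 4 were higher and 1 lower (7.83 and 8.24% of all genes). Higher were Cdkn2b, which encodes the CDK4/6 inhibitor p15 (2.80 and 3.55), Ccng1 (1.39 and 1.57), Tfdp2 (1.39 and 1.34), a partner of E2F factors, and Ccnh (1.06 and 1.82). Trp53, the p53 gene, was lower (-1.08 and -1.48). Cdkn2b and Ccnh passed the filter only through the wound bed. Cdkn2b was read in 3 of 30 cells of the mitosis set and 31 of 220 others. No such gene of 19 met the rule between distal memory and control, and between distal memory and wound bed Trp53 was higher and Ccng1 lower, of 18 (9.59 and 5.28% of all genes).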

How the data were processed

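The deposited table holds whole-number read counts per gene and cell, made by the authors. The tools listed, with no role or order, in the submitters' processing notes are R 4.0.3, Salmon 0.13.1 and Seurat, and the build is mm10 (GRCm38). Neither a cell filter nor doublet removal is stated in the labels, and neither was applied here. Reads ran from 3857 to 3119120 per cell, so genes at few reads are missed in shallow cells.

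Counts were summed per plate, scaled by TMM (edgeR 4.0.16, R 4.3.3) to CPM, and compared as log2 ratios of CPM + 1 within each batch, so a fold of a low gene is understated. No p-value was computed. The ratio script was tested on simulated data. Changes were put only into widely read genes, so how the rule does on rarely read genes was not tested. Shares of cells have exact 95% intervals. The 32 genes and all lists were chosen with earlier results of these data known. Values per plate are given for genes read in at least 20% of cells, genes meeting the size rule, and Mki67, Top2a, Ccnb1, Cdk1, Pcna and Mcm2. The wider lists name up to 4 genes per comparison by the smaller batch ratio. Anln, Tpx2, Cenpf, Pclaf, Tk1, Cenpe, Bub1, Rrm1, Rrm2, Mcm3 to Mcm7 and the keratins were singled out after their values were seen. Alternatives were DESeq2 1.42.0 size factors, total counts, other filters, priors and weights, thinning, and subsets of cells; leaving out repeat-rich cells or the mitosis set, and single-gene ratios in cells with 2000 genes, were chosen after seeing the data. From the marker lists, 6 genes without a row were not analysed here. Melanocyte markers were read in 11 cells, endothelial in 5, fibroblast in 70 (mostly Sparc), sebaceous in 205, bulge in 147 and upper hair follicle markers in 216. A gene of the wider replication list is not reported here.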

Additional observations from a re-analysis of the deposited data

How the results depend on the processing

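The share of cells in the mitosis set stayed within its 95% interval under every alternative but the restriction to cells with at least 2000 genes, which gave 16.7% in control and 26.9% in the wound bed. The share in the replication set depended on the limit. For control, distal memory and wound bed it was 38.1, 43.2 and 32.9% with 2 or more genes, 10.7, 14.8 and 9.41% with 5 or more, 9.52, 19.8 and 9.41% with at least 5 reads per gene, 9.64, 19.5 and 8.97% thinned to 10000 reads, and 33.3, 46.7 and 30.8% in cells with at least 2000 genes.

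Between wound bed and control, the 6 genes past the size rule became 11 without a filter, 2 with a filter of 25%, 3 with cells weighted equally, 1 thinned, 1 without repeat-rich cells and 2 without the mitosis set. Between distal memory and control, 0 became 2 without a filter, and 1 without deep cells, with 2000 genes, thinned or without repeat-rich cells. Between distal memory and wound bed, 1 became 0 with DESeq2 size factors, 2 with total counts, 3 without a filter, 4 with equal weights, 6 without deep cells, 5 with 2000 genes, and 3 when thinned, without repeat-rich cells or without the mitosis set. The mean log2 ratio of wound bed to control reversed for Cdkn1b without repeat-rich cells (0.16) and for Birc5 without the mitosis set (-0.20), which Birc5 helped to define and which held 99.8% of its reads. The cause of the other moves was not tested. Total counts moved the median of all genes to -0.25 in batch 1 between distal memory and wound bed, where Ccnd2 then missed the rule (0.54 and 1.86), as it did with DESeq2 size factors (0.92 and 1.76). Ratios were taken within each batch, which already pairs the plates. No paired analysis was possible because no result comes from a test.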
